A study of Mus musculus with 12 samples.

Results

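The genes described here are 36 enzymes and regulators of sphingolipid and galactolipid synthesis, chosen by their place in the pathway, out of 55487 genes measured in the mouse hippocampus. This choice was made with earlier results of these data known, so shares of members set beside all genes are descriptions, not independent tests. From each of 6 WT and 6 USF-1 KO mice, 1 library of hippocampal RNA was sequenced. All 12 mice were of the C57Bl/6JRccHsd strain and 3-4 months old, came from matings of USF-1 heterozygotes, and have no treatment in the labels. The WT group held 4 females and 2 males and the USF-1 KO group 2 females and 4 males, so the sexes were not balanced between genotypes. These sexes are those of the labels, and the study's own account of the sexes per genotype is different, so values by sex hold only if the labels are right. The loss of USF-1 is inherited and not limited to a cell type, and bulk tissue was sequenced, so that fewer cells of a type and less RNA per cell cannot be told apart. Mice are named by genotype and number, such as WT-490.

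Sphingolipids are membrane lipids built on a sphingoid base, which serine palmitoyltransferase makes from serine and a fatty acid and ceramide synthases join to a second fatty acid to give ceramide. Ceramide then takes one of several paths. In oligodendrocytes, the myelin-forming cells of the brain, galactose is added to give galactosylceramide, which can be sulfated to sulfatide, and both are major lipids of myelin. In neurons glucose is added instead, followed by galactose and sialic acid, and the products are gangliosides, lipids of the neuronal surface. Ceramide can also be turned into sphingomyelin or broken down to sphingosine and its phosphate. The comparison asked whether the myelin path and the ganglioside path differed alike between the genotypes.

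Values are normalised read counts, that is, reads per gene after division by the library's size factor, and totals on genes ranged from 21679622 to 32091173 reads. Usf1 ranged from 842 to 1583 in WT mice and from 117 to 163 in USF-1 KO mice, and the groups did not overlap. WT-493 held the lowest WT value. Choroid plexus markers, which belong to a tissue inside the ventricles, summed to 57504 in WT-490 and 162710 in WT-493 against 774 to 2697 in the other 10 mice, and 1 of the 7 markers (Kcne2) was at 0 in WT-522. For some members, values without those 2 mice are also given.

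The sequence recognised by the transcription factor USF-1 is the E-box CACGTG, which reads the same on both strands. Of the 36 members, 31 matched an entry in the RefSeq promoter table for GRCm38.p6, which covers 250 bases before to 50 bases after each annotated gene start. B4galnt1, B4galt6, St3gal2, Fa2h and Smpd3 had no entry. CACGTG was found in 6 of the 31 members (19.4%, exact binomial 95% interval 7.45% to 37.5%) and in 2187 of 27025 genes in the whole table (8.09%). A gene was counted if any of its windows held the motif, and the 31 members had 48 windows, with several for Sgms2 and Sphk1. From 100 bases before to 50 bases after the start it was found in 3 of 31 members (9.68%) and in 5.0% of all genes. The 6 members with the motif are shown because they are the ones that carry the known USF-1 binding sequence close to a start, each 5′ to 3′ on the strand of the gene, with the E-box in capitals and 10 bases on either side. A match describes the sequence and does not show binding.
Cers2: ccctgcggggCACGTGccacccgccc
Cers6: gccaggctgcCACGTGacaggcgagg
Degs1: gagcctcaatCACGTGgtccagtcag
Sgms2: cccaggttagCACGTGaaatattgtt
Smpd2: gcggcaaccgCACGTGacatgctggg
Sphk1: tacaccggggCACGTGtgcattttca

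These windows lie at chr3:95315051-95315076 on the plus strand for Cers2, chr2:68861409-68861434 on the plus strand for Cers6, chr1:182282223-182282248 on the minus strand for Degs1, chr3:131489144-131489169 on the minus strand for Sgms2, chr10:41490519-41490544 on the minus strand for Smpd2 and chr11:116532339-116532364 on the plus strand for Sphk1. The motif began 129 bases before a RefSeq start of Cers2, 22 bases before that of Cers6, 43 bases before that of Degs1, 117 bases before a start of Sgms2 and 194 bases before that of Smpd2. Sphk1 has overlapping windows of neighbouring starts, and its motif lay 95 bases before one and 102 bases before the other. By the GENCODE coordinates, the motifs of Cers2, Degs1, Sgms2 and Sphk1 lie inside the gene, downstream of its outermost start. None of these 6 genes passed the adjusted threshold in the expression comparison described next.

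Of the 36 members, Ugt8a of the myelin path was the one that fell past the threshold. Its mean was 47.2% lower in USF-1 KO than in WT mice. Fa2h and Gal3st1, the other members of that path, had means 41.0% and 30.2% lower in USF-1 KO mice without passing the threshold. The 7 members of the ganglioside path had log2 fold changes from -0.06 to 0.07. Over all members, limma with Benjamini-Hochberg adjustment over 18221 genes called 1 of 36 lower in USF-1 KO mice, or 2.78%, where 0.741% of all tested genes were called lower. No member was called higher, against 0.159% of all genes. At an unadjusted p under 0.05, 7 members (19.4%) were lower, against 7.60% of all genes, and 0 were higher, against 5.92%. No member had WT and USF-1 KO values that did not overlap, while 1.08% of all genes were lower without overlap and 0.423% were higher without overlap.

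Ugt8a (ENSMUSG00000032854, chr3:125865271-125938619, minus strand, GRCm38) encodes the galactosyltransferase that makes galactosylceramide from ceramide. The normalised counts of Ugt8a were 1862 in WT-490, 1399 in WT-493, 954 in WT-522, 1485 in WT-523, 1937 in WT-547 and 1548 in WT-573. The counts in USF-1 KO mice were 904 in KO-482, 904 in KO-484, 1020 in KO-488, 680 in KO-530, 666 in KO-553 and 679 in KO-564. Thus 5 of 6 USF-1 KO mice lay below the lowest WT mouse and 5 of 6 WT mice lay above the highest USF-1 KO mouse, and WT-522 and KO-488 made the overlap. The mean was 1531 ± 354 in WT and 809 ± 153 in USF-1 KO mice (SD, n = 6 each). The log2 fold change was -0.90 with a standard error of 0.16 and a 95% interval of -1.25 to -0.56 (limma adjusted p = 0.0167), and a two-sided exact permutation test of this single gene gave p = 0.00433. By the sexes of the labels it was -0.77 in females and -1.08 in males, and the interaction of sex and genotype did not pass the threshold.

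The call of Ugt8a held in 20 of 24 alternative settings, with log2 fold changes from -1.03 to -0.34 and adjusted p-values from 2.44e-06 to 0.158. It was lost without WT-490 (limma adjusted p = 0.0503), without KO-564 (limma adjusted p = 0.0538), without WT-490 and WT-493 together (log2 fold change -0.85, limma adjusted p = 0.0824) and with the oligodendrocyte marker level in the model, which is given further on.

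The 250 bases before the Ugt8a start are shown because it is the member that passed the threshold. They lie at chr3:125938653-125938902 (RefSeq, GRCm38.p6) and are printed 5′ to 3′ on the minus strand. The sequence has no CACGTG and 1 match to the general E-box pattern CANNTG, which is in capitals and is found in the windows of 75.0% of all genes of the table.
Ugt8a: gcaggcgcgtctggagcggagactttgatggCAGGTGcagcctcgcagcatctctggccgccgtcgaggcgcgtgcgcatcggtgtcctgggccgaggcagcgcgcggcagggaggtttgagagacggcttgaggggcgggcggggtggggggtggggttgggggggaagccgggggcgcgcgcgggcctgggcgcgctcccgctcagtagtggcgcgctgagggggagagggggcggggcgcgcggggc

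Fa2h (ENSMUSG00000033579, chr8:111345135-111393824) hydroxylates the fatty acids that go into myelin galactolipids. Its normalised counts in WT mice, in the same order of mice, were 1528, 1063, 679, 1193, 1441 and 1303, and in USF-1 KO mice they were 828, 723, 871, 605, 564 and 663. WT-522 again lay among the USF-1 KO mice, and the other 5 WT mice lay above all of them. The means were 1201 ± 305 and 709 ± 122 (SD, n = 6 each), the log2 fold change was -0.73 with a standard error of 0.17, and the gene missed the threshold in limma (adjusted p = 0.0713). The exact permutation test gave p = 0.00866.

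Gal3st1 (ENSMUSG00000049721, chr11:3983636-3999326, plus strand) encodes the sulfotransferase that turns galactosylceramide into sulfatide. Its counts were 349, 261, 217, 282, 317 and 255 in WT mice and 212, 170, 249, 158, 170 and 215 in USF-1 KO mice. KO-488, the highest USF-1 KO mouse for all 3 genes of this path, lay within the WT range here, and WT-522 was the lowest WT mouse for all 3. The means were 280 ± 47.1 and 196 ± 35.3 (SD, n = 6 each), with a log2 fold change of -0.52 and a standard error of 0.13 (limma adjusted p = 0.0851, exact permutation p = 0.00433). The 250 bases before its first RefSeq start, at chr11:3983386-3983635 on the plus strand, are shown beside those of Ugt8a because the 2 enzymes act in sequence. They hold neither CACGTG nor CANNTG.
Gal3st1: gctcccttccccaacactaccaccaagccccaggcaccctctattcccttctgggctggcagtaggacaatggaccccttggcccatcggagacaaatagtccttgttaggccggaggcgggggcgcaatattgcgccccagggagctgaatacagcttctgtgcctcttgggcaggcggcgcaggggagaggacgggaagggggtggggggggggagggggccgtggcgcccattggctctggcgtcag

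How many of these enzymes passed depended on the tool and on single mice. DESeq2 on the recovered reads called 4 of 36 members lower (11.1%, against 2.64% of all genes), namely Ugt8a (adjusted p = 2.44e-06), Fa2h (adjusted p = 7.50e-04), Degs1 (adjusted p = 0.00498) and Gal3st1 (adjusted p = 0.0107), while edgeR called Ugt8a alone (adjusted p = 0.0153). Without WT-522, limma called 5 of 36 lower (13.9%, against 2.24% of all genes). These were Ugt8a (adjusted p = 0.00124), Fa2h (adjusted p = 0.00217), Degs1 (adjusted p = 0.00392), Cers2 (adjusted p = 0.00711) and Gal3st1 (adjusted p = 0.0237). Without KO-488, limma called Ugt8a (adjusted p = 0.0139) and Gal3st1 (adjusted p = 0.0405), among 185 genes called in either direction.

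**Figure D1:**
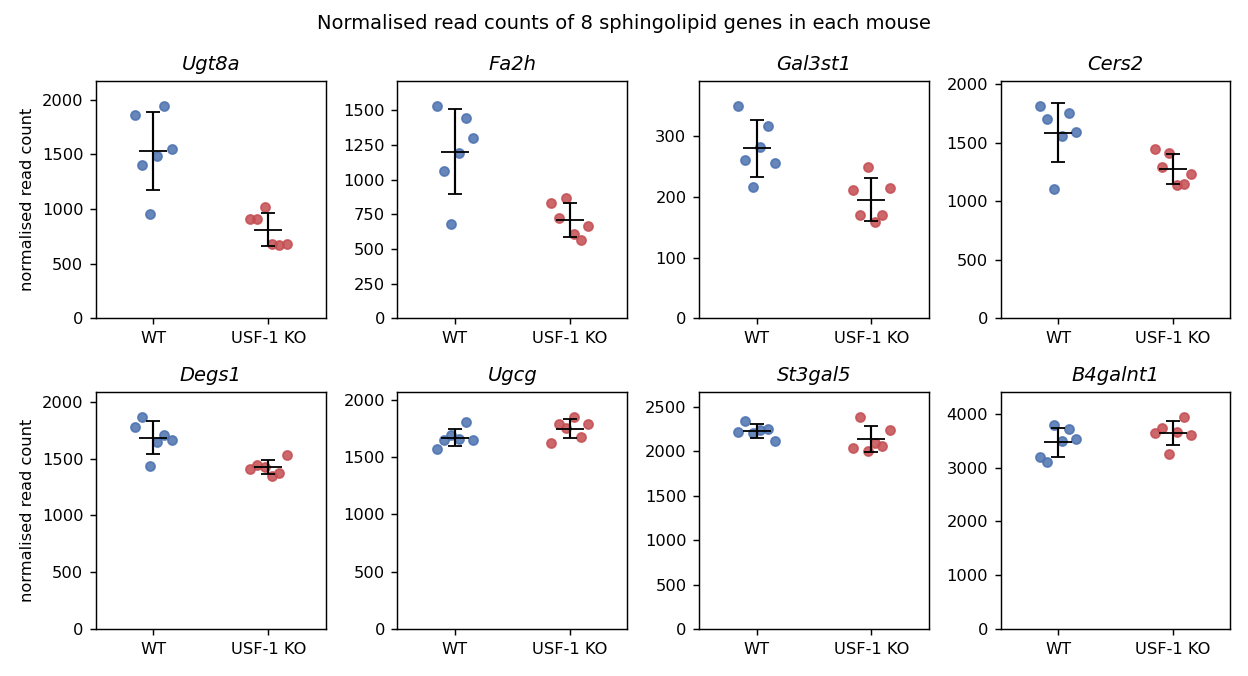
Normalised read counts (y axis, from 0) of 8 genes in 6 WT mice (blue) and 6 USF-1 KO mice (red), where each point is a mouse and the bars are the mean ± SD. Ugt8a falls from a mean of 1531 to 809 with overlap of WT-522 and KO-488, while Ugcg, St3gal5 and B4galnt1 of the ganglioside path have overlapping points in the WT and USF-1 KO mice.

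The ganglioside path opens with Ugcg (ENSMUSG00000028381, chr4:59189257-59222833), the glucosyltransferase that competes with Ugt8a for ceramide. Its counts were 1571, 1652, 1691, 1655, 1803 and 1649 in WT mice and 1624, 1788, 1758, 1850, 1674 and 1789 in USF-1 KO mice. The groups overlapped almost wholly. The log2 fold change was 0.06 with a 95% interval of -0.02 to 0.15 (limma adjusted p = 0.538). B4galt5 and B4galt6, which add galactose to make lactosylceramide, had log2 fold changes of 0.07 (95% interval -0.01 to 0.16) and 0.06 (95% interval -0.07 to 0.19).

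St3gal5 makes the ganglioside GM3 from lactosylceramide, St8sia1 makes GD3 from GM3, and B4galnt1 starts the complex gangliosides that prevail in the adult brain. St3gal5 had counts of 2215, 2344, 2210, 2240, 2256 and 2110 in WT mice and 2036, 2384, 2003, 2090, 2056 and 2245 in USF-1 KO mice. St8sia1 had 1759, 1860, 1541, 1854, 1890 and 1779 in WT mice and 1653, 1723, 1763, 2088, 1952 and 1663 in USF-1 KO mice. The genotypes overlapped for both genes. B4galnt1 had 3193, 3098, 3787, 3490, 3718 and 3527 in WT mice and 3650, 3743, 3251, 3673, 3940 and 3612 in USF-1 KO mice, again overlapping. The log2 fold changes were -0.06 (95% interval -0.16 to 0.03) for St3gal5, 0.02 (95% interval -0.12 to 0.16) for St8sia1 and 0.07 (95% interval -0.05 to 0.19) for B4galnt1. St3gal2, a sialyltransferase of the later steps, had a log2 fold change of 0.01 (95% interval -0.11 to 0.14). Of the B4galnt1 exon length, 20.7% overlaps Slc26a10 on the opposite strand, and whether counting used strand is not given in the sources used here.

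Set side by side, the myelin path had 1 of 3 members called and 3 of 3 at an unadjusted p under 0.05, all lower, and a median log2 fold change of -0.73. The ganglioside path had 0 of 7 called by limma, edgeR or DESeq2 and 0 of 7 at an unadjusted p under 0.05, and a median of 0.06, where the median over all tested genes was -0.000649. The lowest bound of the 7 ganglioside intervals was -0.16, whereas the upper bound for Ugt8a was -0.56 and that for Gal3st1 was -0.24. The difference between the paths as such was not tested. The count of Ugt8a relative to that of Ugcg, the enzymes at the point where the paths part, was 1.19, 0.847, 0.564, 0.897, 1.07 and 0.939 in WT mice and 0.557, 0.505, 0.580, 0.368, 0.398 and 0.380 in USF-1 KO mice. The mean ratio was 0.918 ± 0.213 in WT and 0.465 ± 0.0943 in USF-1 KO mice (SD, n = 6 each), and WT-522 and KO-488 overlapped as they did for Ugt8a itself. This ratio compares RNA in bulk tissue, and the use of ceramide was not measured.

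Per kilobase of exon, the level of Ugt8a was 338 in WT mice, close to that of Ugcg at 320, and 178 in USF-1 KO mice, where Ugcg was 335. Fa2h went from 399 to 236 per kilobase and Gal3st1 from 137 to 95.8. The ganglioside enzymes held the 3 highest levels per kilobase among the members in WT mice, with 1004 for B4galnt1, 851 for St3gal5 and 699 for B4galt6. The lowest levels per kilobase were those of Sphk1 (5.64), Degs2 (12.7) and Sgms2 (18.2). The myelin enzymes also varied more among mice of a genotype. The coefficient of variation within the WT mice was 23.1% for Ugt8a, 25.4% for Fa2h and 16.8% for Gal3st1, and between 2.52% (B4galt6) and 7.96% (B4galnt1) in the ganglioside path.

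**Figure D2:**
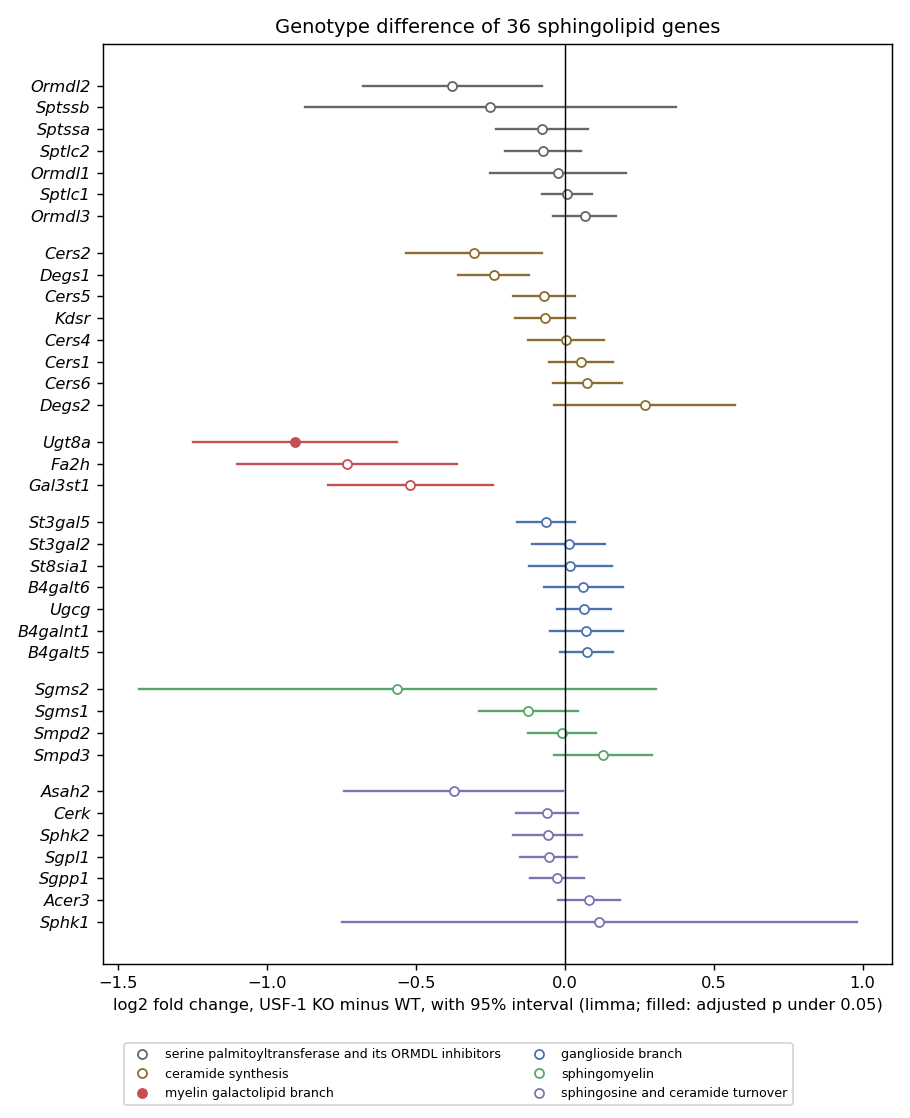
Log2 fold change between USF-1 KO and WT mice (x axis, 6 mice per genotype) of the 36 members, with 95% intervals from limma, coloured by place in the pathway, where a filled point has an adjusted p under 0.05. Ugt8a at -0.90 is the filled point, and the 7 ganglioside genes (blue) sit between -0.06 and 0.07.

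Serine palmitoyltransferase, the first and rate-limiting enzyme, and its inhibitors had 0 of 7 members called by limma, edgeR or DESeq2, and 1 of 7 (Ormdl2) lower at an unadjusted p under 0.05. Its catalytic subunits Sptlc1 and Sptlc2 had 744 ± 18.6 and 815 ± 62.1 in WT mice and 748 ± 30.7 and 774 ± 51.9 in USF-1 KO mice (SD, n = 6 each). The small activating subunits Sptssa and Sptssb had 341 ± 22.3 and 46.1 ± 21.2 in WT mice and 324 ± 34.2 and 36.2 ± 9.15 in USF-1 KO mice. The log2 fold changes of the 4 subunits ran from -0.25 (Sptssb) to 0.01 (Sptlc1).

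The ORMDL proteins inhibit serine palmitoyltransferase when ceramide is plentiful. Ormdl3, the most abundant of them, had 1473 ± 104 in WT and 1541 ± 62.3 in USF-1 KO mice, and Ormdl1 had 110 ± 11.5 and 109 ± 16. Ormdl2 had counts of 134, 121, 96.6, 95.1, 103 and 91.3 in WT mice and 66.9, 62.1, 97.6, 86.3, 78.9 and 103 in USF-1 KO mice. The 2 highest WT values were those of WT-490 and WT-493, and KO-488 and KO-564 lay in the WT range. Its log2 fold change was -0.38 with a standard error of 0.14 and missed the threshold (limma adjusted p = 0.245, exact permutation p = 0.0368). Without WT-490 and WT-493 it was -0.25. Since 66.7% of the Ormdl2 exon length overlaps Dnajc14 on the opposite strand, reads of the 2 genes may not have been told apart.

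Ceramide synthesis had 0 of 8 members called by limma, 2 of 8 lower at an unadjusted p under 0.05, and 1 of 8 (Degs1) called lower by DESeq2. Degs1 (ENSMUSG00000038633, chr1:182275772-182282804), the desaturase of the last step to ceramide, had counts of 1784, 1867, 1436, 1648, 1713 and 1668 in WT mice and 1414, 1448, 1429, 1352, 1377 and 1532 in USF-1 KO mice. WT-522 alone among WT mice fell within the USF-1 KO range. The mean was 1686 ± 147 in WT and 1425 ± 62.6 in USF-1 KO mice (SD, n = 6 each), a log2 fold change of -0.24 with a standard error of 0.06 (limma adjusted p = 0.0713, exact permutation p = 0.0065). Without WT-490 and WT-493, the mice with the highest Degs1 counts, the log2 fold change was -0.18 (limma adjusted p = 0.291).

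Cers2 (ENSMUSG00000015714, chr3:95314791-95323599) is the ceramide synthase for the very long fatty acids of myelin lipids. Its counts were 1808, 1698, 1103, 1557, 1755 and 1591 in WT mice and 1441, 1288, 1407, 1134, 1144 and 1229 in USF-1 KO mice. WT-522 was lower than every USF-1 KO mouse, and the other 5 WT mice were higher than every USF-1 KO mouse. The log2 fold change was -0.30 with a standard error of 0.11 and missed the threshold (limma adjusted p = 0.216, exact permutation p = 0.0411). Without WT-490 and WT-493 the log2 fold change of Cers2 was -0.22 (limma adjusted p = 0.602).

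None of the remaining enzymes of ceramide synthesis had an unadjusted p under 0.05. Kdsr, the reductase of the second step, had 777 ± 54.4 in WT and 741 ± 20.5 in USF-1 KO mice. Cers1, the ceramide synthase of neurons, had 1156 ± 67.6 and 1202 ± 73.1. The same-strand neighbour Gdf1 covers 42.5% of the Cers1 exon length and was at a mean of 0. Among the other ceramide synthases, Cers4 had 1756 ± 189 and 1755 ± 57.0, Cers5 had 774 ± 39.9 and 738 ± 40.0, and Cers6 had 1993 ± 140 and 2101 ± 143. Degs2, which also hydroxylates the sphingoid base, was low, with 32.8 ± 6.72 in WT and 39.3 ± 4.29 in USF-1 KO mice (log2 fold change 0.27, 95% interval -0.04 to 0.57), and 6 of 6 USF-1 KO mice lay above the WT mean.

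Of the sphingomyelin genes, 0 of 4 were called by limma, edgeR or DESeq2 and 0 of 4 had an unadjusted p under 0.05. The synthase Sgms1 had 737 ± 91.9 in WT and 675 ± 48.8 in USF-1 KO mice. Sgms2, the second synthase, had 158 in WT-490 and 306 in WT-493 whereas the remaining WT mice had 35.2 to 70.2 and USF-1 KO mice 50.5 to 68.1. These 2 mice were those with high choroid plexus markers, and without them the log2 fold change of Sgms2 went from -0.56 to 0.12. The sphingomyelinases Smpd2 and Smpd3, which release ceramide from sphingomyelin, had 368 ± 21.6 and 3100 ± 236 in WT mice and 366 ± 18.1 and 3401 ± 422 in USF-1 KO mice. Mical1 on the opposite strand overlaps 20.3% of the Smpd2 exon length.

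The turnover of ceramide and sphingosine had 0 of 7 members called by limma, edgeR or DESeq2 and 1 of 7 lower at an unadjusted p under 0.05. That one was Asah2, the neutral ceramidase, with counts of 429, 542, 266, 287, 358 and 261 in WT mice and 298, 282, 330, 224, 221 and 256 in USF-1 KO mice. Again WT-490 and WT-493 were the 2 highest. The log2 fold change was -0.37 with a standard error of 0.17 (limma adjusted p = 0.361, exact permutation p = 0.0866). It was -0.24 without WT-493 and -0.13 without WT-490 and WT-493. Acer3, the alkaline ceramidase, had 535 ± 26.8 in WT and 567 ± 29.9 in USF-1 KO mice, and the ceramide kinase Cerk had 1734 ± 100.4 and 1662 ± 99.9. The sphingosine kinases differed in level, with 26.9 ± 11.3 and 32.4 ± 17.4 for Sphk1 and 944 ± 43.5 and 909 ± 70.8 for Sphk2. Sgpp1, the phosphatase, had 867 ± 33.2 and 852 ± 40.9, and Sgpl1, the lyase that breaks sphingosine phosphate down for good, had 948 ± 34.5 and 913 ± 53.9.

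In all, 21 of 36 members had a negative and 15 a positive log2 fold change, 23 were within 0.1 of zero, and 23 had a 95% interval lying wholly between -0.25 and 0.25. The interaction of sex and genotype was called for 0 of 18221 genes by limma, with 628 genes and 0 of 36 members at an unadjusted interaction p under 0.05.

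The myelin enzymes moved with the oligodendrocyte markers. All 17 of 17 markers had a negative log2 fold change, from -0.78 to -0.44 with a median of -0.66. None was called by limma or edgeR, though 17 of 17 had an unadjusted p under 0.05, DESeq2 called 16 of 17 lower and limma without WT-522 called 17 of 17 lower. Of all tested genes, 7.60% were lower at an unadjusted p under 0.05, 2.64% by DESeq2 and 2.24% by limma without WT-522. The summed level of the 17 markers ranged from 95041 to 205434 in WT mice (median 169813), lowest in WT-522, and from 82456 to 125158 in USF-1 KO mice (median 107676). No oligodendrocyte marker was at 0 in any mouse. Markers of oligodendrocyte precursors (6 of 6 negative, median -0.26, 0 called by limma and 3 by DESeq2) and of microglia (6 of 6 negative, median -0.21, 0 called by limma and 0 by DESeq2) were also lower in the fit, and those of excitatory neurons had a median of 0.13 with 7 of 7 positive and 0 called by limma, edgeR or DESeq2. Inhibitory neuron markers had a median of -0.03 (5 of 6 negative), astrocyte markers -0.01 (5 of 8 negative) and endothelial markers 0.03 (4 of 5 positive). The choroid plexus markers, high in WT-490 and WT-493, had a median of -1.11 (7 of 7 negative). In these 4 lists limma called 0, and DESeq2 called 1 astrocyte and 3 choroid plexus markers lower.

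Over the 12 mice, the level of each member was correlated with the mean log2 level of the 17 oligodendrocyte markers, with a permutation test of 100000 resamples and adjustment over the 36 relations. Pearson's r passed an adjusted p of 0.05 for 5 members, all positive. The resampling ignored genotype, and the 17 markers and these 5 members all had negative log2 fold changes. The p-values over the 12 mice therefore also reflect the difference between genotypes. Fa2h had r = 0.986 (rho = 0.965), Cers2 r = 0.973 (rho = 0.965), Ugt8a r = 0.960 (rho = 0.909), Gal3st1 r = 0.891 (rho = 0.881) and Degs1 r = 0.874 (rho = 0.832). The adjusted permutation p-values of r were 1.8e-04, 2.4e-04, 1.8e-04, 0.0018 and 0.00425, and those of rho were 3.6e-04, 3.6e-04, 0.00108, 0.00324 and 0.0106. By rho alone, Sptssb (rho = 0.741) and Asah2 also passed. The relation held without the 2 mice farthest from the median (WT-490 and WT-547), with r of 0.977, 0.958, 0.929, 0.812 and 0.829. Within WT mice r was 0.987, 0.969, 0.985, 0.868 and 0.798, and within USF-1 KO mice it was 0.938, 0.955, 0.882, 0.688 and 0.481, in the same order of genes. With 6 mice each, no within-genotype relation passed the adjusted threshold by exact permutation (lowest adjusted p = 0.0667). With 720 pairings and adjustment over 36 members, a lone member could not have passed even with a perfect relation. No conclusion is drawn from this outcome. In the ganglioside path r over the 12 mice lay between -0.601 (St3gal2) and 0.330 (St3gal5), and Ugcg had r = -0.426 (rho = -0.462, adjusted permutation p = 0.261).

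**Figure D3:**
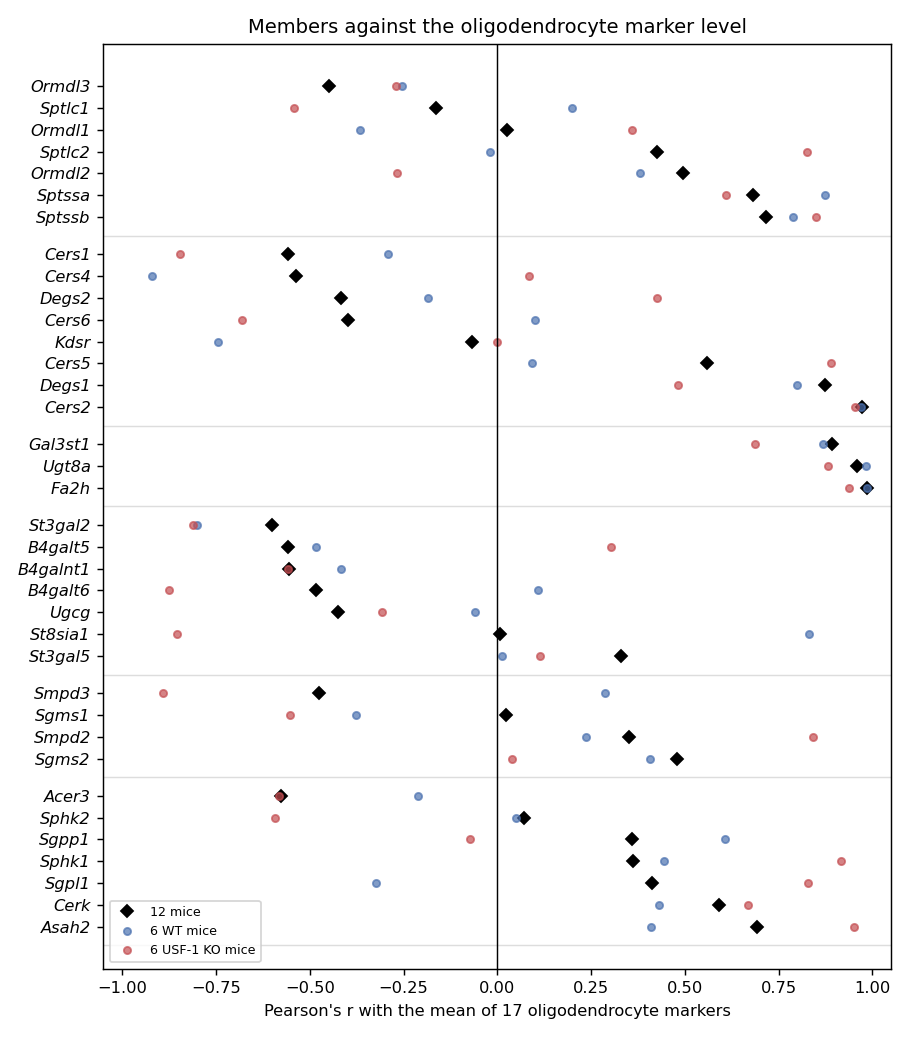
Pearson's r (x axis) of each member with the mean log2 level of 17 oligodendrocyte markers, over 12 mice (black), 6 WT mice (blue) and 6 USF-1 KO mice (red), grouped by place in the pathway. The 3 myelin enzymes lie at 0.891 to 0.986 over the 12 mice, together with Cers2 at 0.973 and Degs1 at 0.874, and the ganglioside enzymes lie at or below 0.330.

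**Figure D4:**
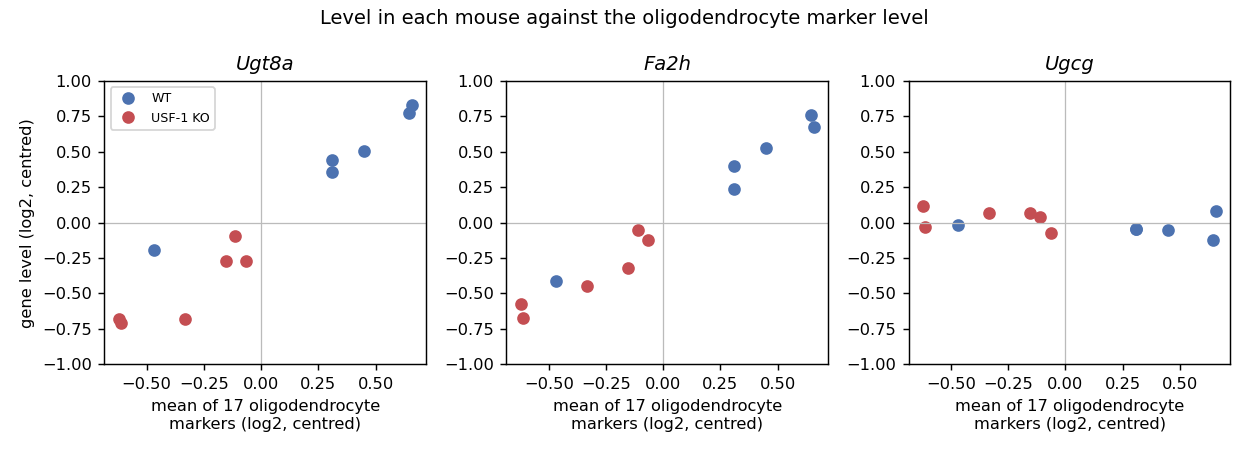
Level of Ugt8a, Fa2h and Ugcg in each mouse (y axis, log2, centred on the mean of all mice) against the mean of 17 oligodendrocyte markers (x axis, log2, centred), with 6 WT mice in blue and 6 USF-1 KO mice in red. Fa2h follows the markers along one line (r = 0.986), for Ugt8a WT-522 lies above KO-530, KO-553 and KO-564, whose marker levels are nearest to its own, and Ugcg shows no slope of this kind (r = -0.426).

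With the oligodendrocyte marker level as a covariate, 0 of 36 members were called by limma, and 5 (Ugt8a, Kdsr, Cers4, St3gal2 and Sgms1) were lower at an unadjusted p under 0.05. Of the 18221 genes tested in this fit, 18 were called and 1977 had an unadjusted p under 0.05, in either direction. Ugt8a then had a log2 fold change of -0.34 with a standard error of 0.08 (limma adjusted p = 0.158), Fa2h of -0.11 with a standard error of 0.07 (limma adjusted p = 0.606) and Gal3st1 of -0.16 with a standard error of 0.13 (limma adjusted p = 0.687). Cers2 turned to 0.07. The markers are an outcome of the same libraries and differ with genotype, so this fit describes what is left beside them.

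Relative to the oligodendrocyte markers, Ugt8a was also lower in USF-1 KO mice. As a share of their summed count it was 0.867% to 1.0% in WT mice (mean 0.924% ± 0.0549) and 0.669% to 0.825% in USF-1 KO mice (mean 0.770% ± 0.0620, SD, n = 6 each), and these ranges did not overlap, with the highest share in WT-522. Fa2h, by the same measure, had 0.659% to 0.749% and 0.635% to 0.734%, and Gal3st1 0.143% to 0.228% and 0.149% to 0.212%, both overlapping. The mean share of Ugt8a was 16.7% lower in USF-1 KO mice. When each of the 17 markers was set against the sum of the other markers, 0 of 17 had shares that did not overlap, and their mean shares in USF-1 KO mice were 90.8% (Gjb1) to 115% (Gpr37) of those in WT mice. The share was looked at after the counts of Ugt8a were known and is a description without a test.

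**Figure D5:**
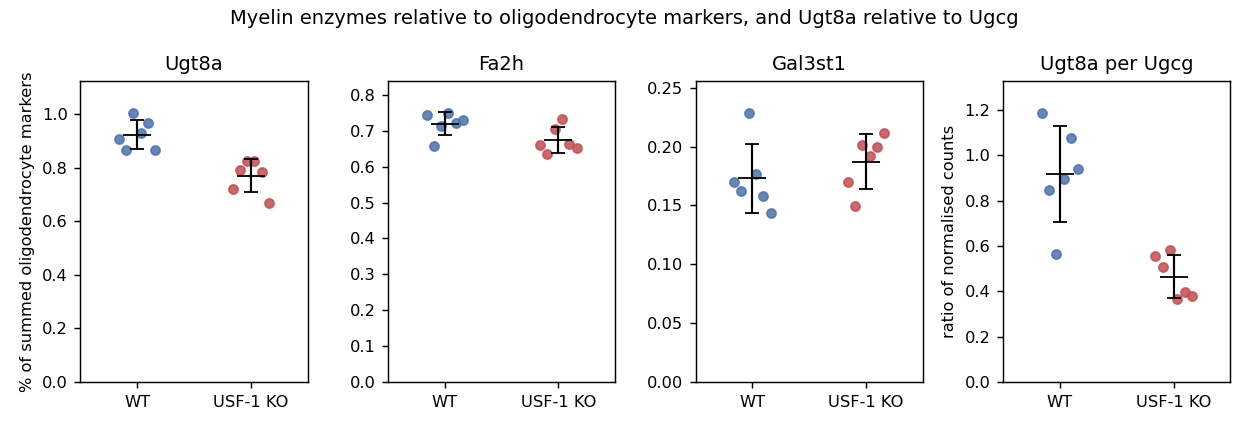
Ugt8a, Fa2h and Gal3st1 as a percentage of the summed count of 17 oligodendrocyte markers, and the ratio of Ugt8a to Ugcg counts (y axes, from 0), in 6 WT mice (blue) and 6 USF-1 KO mice (red), with mean ± SD. The Ugt8a shares run from 0.867% to 1.0% in WT and 0.669% to 0.825% in USF-1 KO mice, and the other 3 panels overlap.

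Among the other genes of the pathway, none of the 22 tested of 26 further synthesis and remodelling enzymes was called by limma or edgeR, with 5 lower and 1 higher at an unadjusted p under 0.05 and 2 called lower by DESeq2. Among the lysosomal genes that break sphingolipids down, none was higher past the threshold, and those lower past it included Hexa, a subunit of the enzyme that degrades the ganglioside GM2 (1267 ± 94.7 in WT and 953 ± 53.9 in USF-1 KO mice, log2 fold change -0.41, limma adjusted p = 0.00277), Arsa, the sulfatidase (878 ± 46.8 and 712 ± 42.5, log2 fold change -0.30, limma adjusted p = 0.0105) and Ctsa, which protects lysosomal enzymes (2510 ± 155 and 2127 ± 129, log2 fold change -0.24, limma adjusted p = 0.0415). For these 3 genes the WT and USF-1 KO values did not overlap, where 1.08% of all tested genes were lower without overlap. Over all tested genes, limma called 0.741% lower and DESeq2 2.64%. Of 11 genes for sphingolipid transfer and sphingosine phosphate signalling, 10 were tested and 1 was called lower, Gltp, the glycolipid transfer protein (952 ± 125 and 698 ± 67.3, log2 fold change -0.44, limma adjusted p = 0.0313).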

How the data were processed

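Hippocampal RNA of 12 mice was sequenced, and genotype and sex were taken from the labels. Reads were aligned with STAR 2.5.0a, and the authors deposited a normalised signal per gene, namely its count over the library size factor of DESeq2. The submitters' processing notes also name edgeR 3.22.2 and the build mm10. The counting program, its annotation and its use of strand are not given in the sources used here. Identifiers, coordinates and exon lengths follow GENCODE M21 on GRCm38, which had the coordinates of 98.8% of the genes. Dividing each column by its smallest step gave whole reads for 100% of the values (tolerance 1e-06), which the count tools used. All 12 columns of values were used, and no library repeated another (chi-square over degrees of freedom at least 4.54).

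Genotypes were compared with limma 3.58.1 (R 4.3.3), fitting genotype alone to log2(normalised count + 1) of genes averaging at least 10, with the trend option, two-sided, with Benjamini-Hochberg adjustment over all genes tested and a threshold of 0.05. Fold changes on this scale understate those of low genes. Alternatives were pseudocounts of 0.5 and 5, no filter or a mean of at least 50, rescaled totals, quantile normalisation, sex or the oligodendrocyte marker level as a covariate, no trend, edgeR 4.0.16 and DESeq2 1.42.0 on recovered reads, a threshold of 0.1, each mouse left out, and a shorter promoter window. Leaving out WT-490 and WT-493 together was chosen after seeing the data. The limma, edgeR and DESeq2 scripts were tested on simulated data. Values in every mouse are given for members past the adjusted or unadjusted threshold, the 3 myelin enzymes and the branch points, and other pathway genes are named only when past the threshold, with 1 result not reported here. Members, marker lists and pathway lists were chosen with earlier results of these data known. The labels do not say how the libraries were batched. The p-values measure the spread between these mice, and the intervals of the E-box shares cover counting error only. Plots were drawn with matplotlib.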

Additional observations from a re-analysis of the deposited data

Results flagged for a closer look

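In 3 of the 72 sets of 6 mice, 1 mouse stood far from the other 5 of its genotype by Dixon's test, where about 3.6 are expected by chance. Cers2 was 1103 in WT-522 and 1557 to 1808 in the other WT mice. This mouse also had the lowest summed oligodendrocyte markers of the WT mice, at 95041. Sptlc1 was 689 in KO-482 and 741 to 772 in the other USF-1 KO mice. Cers6 was 2262 in WT-523 and 1892 to 2026 in the other WT mice. None of the 3 genes was called in the comparison of genotypes with all mice, and the part of these mice in their values was not tested.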

How the results depend on the processing

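The number of members called lower was 1, and became 0 with the oligodendrocyte marker level as a covariate, 4 with DESeq2, 4 at a threshold of 0.1, 0 without WT-490 and WT-493, and 0 to 5 with each mouse left out (0 without WT-490 and without KO-564, 5 without WT-522). No member was called higher in any of these settings. The count over all genes at a threshold of 0.1 is not given here. The covariate moved the median of the myelin path to -0.16 and that of the ganglioside path to -0.0156. It also reversed the sign, without a call, of Sptlc1 (-0.00679), Sptssa (0.0774), Sptssb (0.59), Cers1 (-0.0232), Cers2 (0.0733), Cers4 (-0.14), B4galt6 (-0.0286), St3gal2 (-0.14), B4galnt1 (-0.0156), Sgpp1 (0.00852), Smpd2 (0.0529) and Cerk (0.0181). Quantile normalisation reversed St3gal2 (-0.00279), Smpd2 (0.0266) and Ormdl1 (0.0354), sex as a covariate Ormdl1 (0.0448), and edgeR and DESeq2 Cers4 (-0.00308 and -0.000849). Leaving out WT-490 and WT-493 reversed St3gal2 (-0.0427), Sgms2 (0.12), Smpd2 (0.0152) and Ormdl1 (0.00719). With each mouse left out, the log2 fold change ran from -0.00455 to 0.0308 for Sptlc1, -0.0272 to 0.0594 for Cers4, -0.0172 to 0.0493 for St3gal2, -0.0238 to 0.0437 for St8sia1, -0.0468 to 0.45 for Sphk1, -0.0332 to 0.0167 for Smpd2 and -0.0887 to 0.0298 for Ormdl1. The cause of these changes was not tested. Degs2, Sphk1 and Sptssb gave no value with a mean of at least 50. Of the alternative values, 803 kept their direction and side of the threshold and 46 changed sign.

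No paired analysis was possible because the labels give each mouse a number of its own. Bulk RNA of 6 mice per genotype limits what can be seen. At these depths the low genes Sphk1 and Sptssb had intervals reaching from -0.75 to 0.98 and from -0.87 to 0.37, so that sizeable differences were not detectable for them. The interval of Sgms2, which was high in WT-490 and WT-493, was also wide, from -1.43 to 0.31. The sexes were unbalanced between genotypes.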
